A study of Mus musculus with 12 samples.

Results

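The serotonin receptor genes followed here were Htr1a, Htr1b, Htr1f, Htr2a, Htr2c, Htr3a, Htr4, Htr5a, Htr6 and Htr7, chosen by gene name from a table of 55678 gene names. All 10 were found in the table, and all 10 reached a level of 1 TPM (an abundance corrected for transcript length and scaled to the same total in every library) or more in at least 3 libraries, as did 16423 gene names in all. RNA was sequenced from the medial prefrontal cortex of mice of 2 inbred strains. These are BALB/cCrSlc, called BALB/c, and C57BL/6JmsSlc, called B6. The stressed mice of each strain had gone through chronic restraint stress (CRS) of 6 h per day for 21 days, and the control mice were handled without restraint. The groups were B6 control (animals 2, 3 and 9), B6 CRS (animals 12, 13 and 14), BALB/c control (animals 5, 9 and 10) and BALB/c CRS (animals 12, 13 and 15), with 3 libraries in each, 1 per animal. Mice of every group were 9 to 10 weeks old and went through behavioural tests before the tissue was taken with a 1.5 mm punch between +2.0 and +1.5 mm from bregma. Their sex is not given in the labels. The labels name no transgene or drug in any group. The question addressed was whether cortical transcription under chronic stress differs between these strains.

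Serotonin reaches the prefrontal cortex along axons whose cell bodies lie in the raphe nuclei of the brainstem, so the cortex holds receptors for serotonin but hardly any cells that make it. The Htr1 and Htr5 receptors couple to inhibitory Gi/o proteins, which lower cyclic AMP and, for the Htr1 class, open GIRK potassium channels. The Htr2 receptors couple to Gq proteins and phospholipase C, and the Htr4, Htr6 and Htr7 receptors couple to Gs proteins and raise cyclic AMP. Htr3a encodes the subunit that every Htr3 channel needs, the only member of the family that is an ion channel. In the cortex Htr1a and Htr2a are known from pyramidal neurons, and Htr3a marks a class of interneurons.

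Of the 10 genes, 2 differed between the strains when the treatments were averaged: Htr2c was lower and Htr6 was higher in BALB/c. Over all tested genes 18.4% differed in that test. Neither receptor passed it once a score of striatal, excitatory neuron or oligodendrocyte marker genes was added to the fit. Calls over all tested genes then fell as well, from 3021 to between 357 and 950. No receptor gene passed the test for an effect of CRS in either strain. A gene passed, or was called, where its Benjamini-Hochberg adjusted p from limma over all tested genes was under 0.05. The sequences just before the starts of these 2 genes are printed here together with that of Htr1b, the receptor whose level varied most among the B6 controls apart from Htr2a. Each is the 250 bases before the RefSeq start on GRCm38.p6, written 5′ to 3′ on the strand of the gene, with motif matches in capitals: Htr2c at chrX:146962263-146962512 on the plus strand, Htr6 at chr4:139075571-139075820 on the minus strand and Htr1b at chr9:81633833-81634082 on the minus strand.
Htr2c: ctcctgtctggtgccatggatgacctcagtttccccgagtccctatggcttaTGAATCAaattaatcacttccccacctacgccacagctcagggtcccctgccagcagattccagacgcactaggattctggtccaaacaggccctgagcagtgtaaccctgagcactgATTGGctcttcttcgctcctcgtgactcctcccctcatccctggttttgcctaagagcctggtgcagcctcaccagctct
Htr6: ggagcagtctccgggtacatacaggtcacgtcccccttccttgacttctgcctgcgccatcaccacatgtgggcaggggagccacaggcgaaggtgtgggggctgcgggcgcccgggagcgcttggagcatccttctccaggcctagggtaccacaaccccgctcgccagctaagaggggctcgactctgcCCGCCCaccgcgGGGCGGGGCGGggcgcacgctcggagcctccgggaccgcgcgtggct
Htr1b: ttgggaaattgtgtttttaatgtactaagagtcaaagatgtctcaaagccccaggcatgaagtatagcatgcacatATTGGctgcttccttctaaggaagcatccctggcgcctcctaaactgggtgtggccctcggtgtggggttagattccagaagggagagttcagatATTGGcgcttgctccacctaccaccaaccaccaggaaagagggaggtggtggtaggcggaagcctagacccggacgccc
A RefSeq window was at hand for 8 of the 10 genes; Htr3a and Htr4 had none. The motifs were searched on both strands, and overlapping matches were each counted. They were the box named for its letters TATAAA, the GC-rich box recognised by Sp factors with letters GGGCGG, and the box recognised by NF-Y with letters CCAAT. The others were the cyclic AMP response element TGACGTCA, the E-box CACGTG, the core of the glucocorticoid receptor element AGAACA, and the AP-1 site TGANTCA. In that order they occur in 12.4%, 32.7%, 33.8%, 1.55%, 6.02%, 16.1% and 6.75% of the 32851 RefSeq windows of the same length.

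The printed Htr6 window held 3 GC boxes, at 59, 47 and 42 bases before the start, the pair nearest the start overlapping in the print. Its GC content was 70.8%, against a median of 52.4% over all windows. Another RefSeq window of Htr6, at chr4:139074790-139075039, had a GC content of 55.2% and held none of the 7 motifs. The Htr2c window held no GC box; it had a CCAAT box at -80 and an AP-1 site at -198, with a GC content of 55.6%. Htr1b had CCAAT boxes at -174 and -79. Among the windows not printed, Htr1a had a GC box at -123, and Htr2a had a GC box at -85 and the AGAACA core at -168. The Htr5a, Htr1f and Htr7 windows held none of the 7 motifs, although 82% of the Htr7 window was G or C. No receptor window held a TATA box, an E-box or a cyclic AMP response element. These are matches of letters only; binding was not measured.

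In the order of their mean TPM over the 12 libraries, the genes stood as Htr2c (13.4), Htr2a (9.20), Htr1a (7.39), Htr1b (6.18), Htr5a (5.54), Htr3a (4.86), Htr7 (3.65), Htr6 (3.62), Htr1f (1.76) and Htr4 (1.39). Most neighbours in this order did not differ beyond their spread. Htr2c exceeded Htr2a in only 6 of 12 libraries, with a mean difference of 4.16 TPM and an SD of 10.6. Htr1b exceeded Htr5a in 3 of 12, and Htr7 exceeded Htr6 in 6 of 12. The steps that held in nearly every library were Htr3a above Htr7 and Htr6 above Htr1f, each in 11 of 12. The leading receptor differed by strain: Htr2c was the highest of the 10 in 5 of the 6 B6 libraries, whereas Htr2a was the highest in 5 of the 6 BALB/c libraries. The exceptions were B6 control 9, led by Htr2a, and BALB/c CRS 15, led by Htr2c. The summed level of the 10 genes ran from 45.3 TPM in BALB/c CRS 12 to 77.5 TPM in B6 CRS 14, where Htr2c alone made up 42.1% of the sum.

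**Figure D1:**
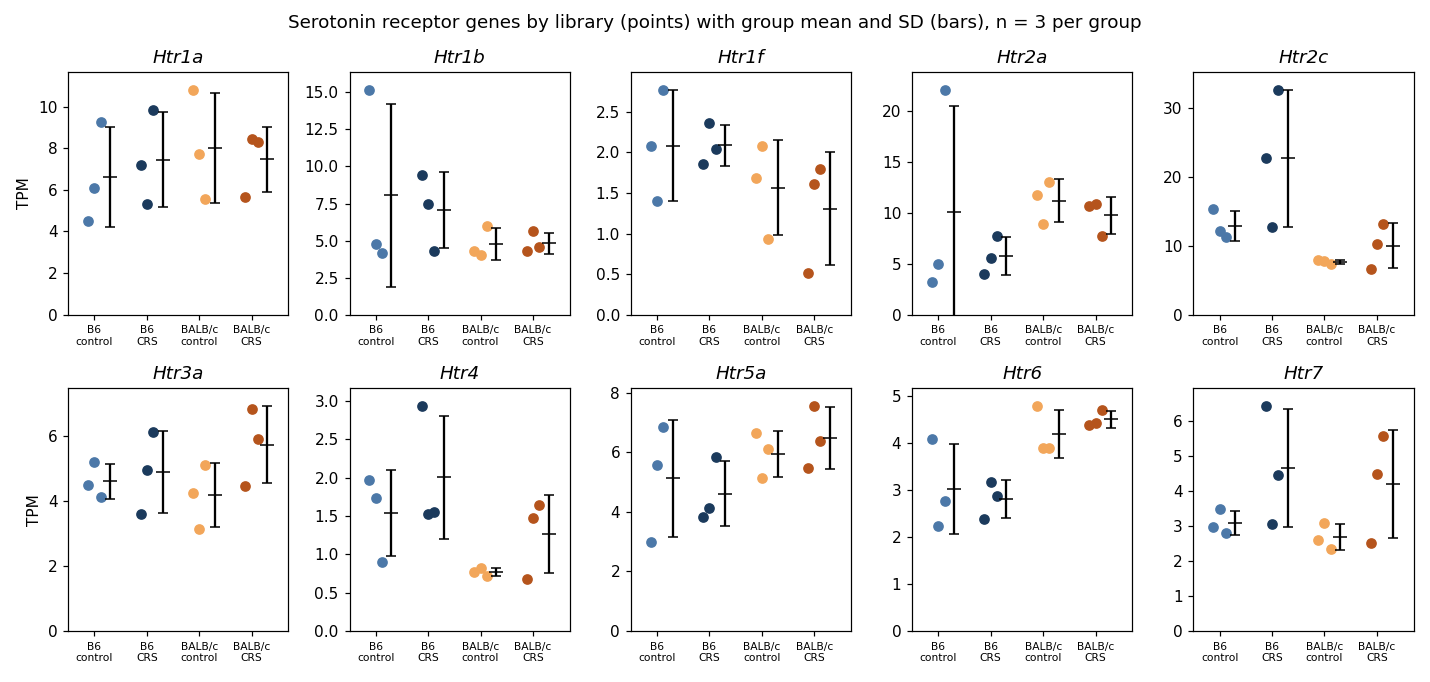
TPM of each of the 10 receptor genes in the 12 libraries; points are libraries, horizontal bars are group means and vertical lines are SDs (n = 3 per group, each panel with its own axis from 0). The 3 BALB/c control libraries of Htr2c lie between 7.41 and 7.94 TPM, below all 6 B6 libraries, and B6 control 9 stands at 22.0 TPM for Htr2a, above the other 11 libraries.

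Htr2c, a Gq-coupled receptor whose transcript is known for RNA editing, lies on chromosome X at 146962513 to 147197277 (GRCm38, plus strand). In B6 controls its level was 15.3, 12.2 and 11.3 TPM, and in B6 CRS mice it was 22.8, 12.7 and 32.7 TPM. The BALB/c controls had 7.94, 7.86 and 7.41 TPM, and the BALB/c CRS mice had 6.63, 10.3 and 13.2 TPM. In bulk tissue fewer cells of a type and less RNA per cell cannot be told apart, here and for all values that follow. The BALB/c controls were the tightest group and lay below every B6 library, while in the CRS mice the strains overlapped, since BALB/c CRS 15 exceeded B6 CRS 13. Group means were 12.9 ± 2.13 and 22.7 ± 9.97 TPM in B6 and 7.74 ± 0.284 and 10.1 ± 3.31 TPM in BALB/c (control and CRS; SD, n = 3).

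Averaged over treatments, Htr2c was lower in BALB/c by a log2 change of -0.86 on the log2(TPM + 1) scale (SE 0.21), a factor of 0.552 (limma, Benjamini-Hochberg adjusted p = 0.0139 over the 16423 genes). The call held when each of the 12 libraries was left out in turn, with changes from -1.03 to -0.71. It was lost with a marker score as a covariate. The change was then -0.70 (SE 0.34, limma adjusted p = 0.338) with the striatal score, -0.71 (limma adjusted p = 0.168) with the excitatory neuron score and -0.84 (limma adjusted p = 0.456) with the oligodendrocyte score. After CRS the strain difference was -1.05 (SE 0.29, 95% interval -1.69 to -0.42, limma adjusted p = 0.0475). That call did not hold without B6 CRS 14 (-0.75, adjusted p = 0.131), B6 CRS 12 (-1.004, 0.145), BALB/c CRS 12 (-0.81, 0.170) or BALB/c CRS 13 (-1.09, 0.0964). It was also lost without B6 control 3, BALB/c control 5, BALB/c control 9 or BALB/c control 10, which leave the change itself at -1.05 but raise the adjusted p to between 0.0617 and 0.0691. In controls the difference was -0.66 (SE 0.29, adjusted p = 0.248).

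Htr2a, the other Gq-coupled receptor and the target of classical psychedelics, lies on chromosome 14 at 74640840 to 74709494 (plus strand). It measured 3.20, 4.98 and 22.0 TPM in B6 controls and 4.003, 5.58 and 7.75 TPM in B6 CRS mice. In BALB/c it measured 11.7, 8.91 and 13.0 TPM in controls and 10.7, 10.9 and 7.69 TPM after CRS. Apart from B6 control 9, every B6 library lay below all BALB/c controls, and only BALB/c CRS 15 fell below the highest of the B6 CRS mice. With all libraries the strain difference averaged over treatments was 0.61 (SE 0.34, limma adjusted p = 0.240). Without B6 control 9 it was 0.98 (adjusted p = 0.00227), and in controls alone it went from 0.53 (adjusted p = 0.607) to 1.27 (adjusted p = 0.0133). The animal that decides this value also had the highest summed level of the excitatory neuron markers, 4432 TPM against 1916 to 3479 TPM in the other 11 libraries; the part of that in the Htr2a level was not tested.

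Among the receptors that couple to Gi/o proteins, Htr1b, a presynaptic autoreceptor and heteroreceptor, varied most. The B6 controls had 15.2, 4.77 and 4.20 TPM, and the B6 CRS mice had 9.43, 7.48 and 4.32 TPM. The BALB/c levels were 4.31, 4.01 and 6.02 TPM in controls and 4.30, 5.62 and 4.57 TPM after CRS. Only B6 control 2, B6 CRS 12 and B6 CRS 13 lay above the BALB/c range, and the strain groups overlapped. The averaged strain difference was -0.44 (SE 0.26, limma adjusted p = 0.281). Exons of Htr1b overlap the span of an antisense gene, D430036J16Rik, and exons of Htr3a overlap that of Gm32335. Whether they overlap exons of these partners was not checked. Whether the quantification used strand is not given in the sources used here, so reads of such partners may not be told apart.

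Htr1a, the autoreceptor of raphe neurons and a postsynaptic receptor in cortex, had 4.50, 6.08 and 9.25 TPM in B6 controls and 7.20, 5.32 and 9.85 TPM in B6 CRS mice. BALB/c controls had 10.8, 7.70 and 5.56 TPM and BALB/c CRS mice 5.67, 8.42 and 8.30 TPM. All 4 groups overlapped, and the averaged strain difference was 0.14 (SE 0.20, limma adjusted p = 0.681). Htr5a, a little-studied Gi/o-coupled receptor, had 2.98, 5.56 and 6.84 TPM in B6 controls, 3.84, 4.13 and 5.86 TPM in B6 CRS mice, 6.64, 5.12 and 6.12 TPM in BALB/c controls and 5.49, 7.55 and 6.38 TPM in BALB/c CRS mice. Its averaged strain difference was 0.33 (SE 0.17, adjusted p = 0.200), with overlapping groups. Htr1f, the target of lasmiditan, had 2.08, 1.40 and 2.77 TPM, then 1.86, 2.36 and 2.04 TPM, in B6 controls and B6 CRS mice. In BALB/c it had 1.69, 2.07 and 0.930 TPM in controls and 0.512, 1.61 and 1.80 TPM after CRS, so the BALB/c CRS mice lay below all B6 CRS mice. The averaged difference of Htr1f was -0.37 (SE 0.19, adjusted p = 0.205).

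Htr6, a Gs-coupled receptor found almost only in brain, lies on chromosome 4 at 139061108 to 139075570 (minus strand). The more GC-rich of its RefSeq windows is printed above. Htr6 measured 4.07, 2.22 and 2.76 TPM in B6 controls and 2.37, 3.16 and 2.87 TPM in B6 CRS mice. The BALB/c libraries measured 4.78, 3.89 and 3.89 TPM in controls and 4.37, 4.41 and 4.70 TPM after CRS. The BALB/c CRS mice were all above the B6 CRS mice, and in controls only B6 control 2 reached into the BALB/c range. Group means were 3.02 ± 0.950 and 2.80 ± 0.400 TPM in B6 and 4.19 ± 0.512 and 4.49 ± 0.182 TPM in BALB/c (control and CRS; SD, n = 3).

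Averaged over treatments, Htr6 was higher in BALB/c by 0.46 on the log2(TPM + 1) scale (SE 0.12), a factor of 1.38 (limma adjusted p = 0.0231). It lost the call without B6 control 3 (0.39, adjusted p = 0.0546), B6 CRS 12 (0.42, 0.0611) or BALB/c control 5 (0.42, 0.0570), and with a marker score as a covariate, where the change was 0.67 (limma adjusted p = 0.111, striatal score), 0.56 (0.0745, excitatory neuron score) or 0.59 (0.321, oligodendrocyte score). After CRS alone the difference was 0.54 (adjusted p = 0.0842; 0.0421 without B6 control 2), and in controls it was 0.39 (adjusted p = 0.258).

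Htr4, a Gs-coupled receptor, was the lowest of the 10. It measured 1.97, 1.73 and 0.905 TPM in B6 controls, 2.93, 1.53 and 1.55 TPM in B6 CRS mice, 0.764, 0.822 and 0.716 TPM in BALB/c controls and 0.684, 1.47 and 1.64 TPM in BALB/c CRS mice. The BALB/c controls lay below all B6 libraries. The averaged strain difference was -0.45 (SE 0.18, limma adjusted p = 0.0989), and without B6 control 9 it was -0.55 (adjusted p = 0.0382). Htr7, the third Gs-coupled receptor, had 2.97, 3.47 and 2.81 TPM in B6 controls, 6.41, 3.06 and 4.46 TPM in B6 CRS mice, 2.61, 3.09 and 2.35 TPM in BALB/c controls and 2.52, 4.48 and 5.56 TPM in BALB/c CRS mice. In each strain 2 CRS libraries of Htr7 exceeded all controls of that strain and 1 did not, and its averaged strain difference was -0.14 (SE 0.18, adjusted p = 0.636).

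The ion channel gene Htr3a varied least over the 12 libraries, with a coefficient of variation of 21.9% against 56.2% for Htr2c. It had 4.48, 5.21 and 4.13 TPM in B6 controls, 3.60, 4.97 and 6.13 TPM in B6 CRS mice, 4.26, 3.16 and 5.13 TPM in BALB/c controls and 4.48, 6.84 and 5.90 TPM in BALB/c CRS mice. All groups overlapped, and the averaged strain difference was 0.04 (SE 0.14, limma adjusted p = 0.895). Markers of the interneuron class that carries this channel (8 genes, Vip and Reln among them) summed to 361 to 1079 TPM in B6 and 978 to 1494 TPM in BALB/c. Most of the sum was Cck, a peptide gene that other cortical neurons express too, with 284 to 1006 TPM in B6 and 899 to 1385 TPM in BALB/c. The other 7 markers summed to 72.8 to 127 TPM in B6 and 79.1 to 122 TPM in BALB/c, so that the strain ranges of this sum overlapped. Single markers differed from the sum. Npas1 separated by strain, at 4.13 to 8.32 TPM in B6 and 9.07 to 15.3 TPM in BALB/c. Prox1 leaned the other way, at 1.96 to 4.67 TPM in B6 and 1.43 to 2.63 TPM in BALB/c.

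Counted over the family, 2 of the 10 genes passed the averaged strain test, 1 lower and 1 higher, where 18.4% of all tested genes passed. After CRS 1 of 10 passed where 7.7% of all did, and in controls 0 of 10 passed by limma where 4.73% did, with 2 of the 10 at an unadjusted p under 0.05. The strains separated fully for 2 of 10 genes in controls (Htr2c and Htr4; 22.9% of all genes) and for 2 of 10 after CRS (Htr1f and Htr6; 29.3%). Over all 12 libraries 0 of 10 separated by strain, against 8.95% of all genes. The receptor counts are thus near those of the whole table. The median log2 change of the 10 genes was -0.05 averaged over treatments, beside -0.08 for all tested genes, with 5 genes on either side of 0; in controls the medians were -0.14 and -0.10. Relative to the median of all genes the averaged changes of the called genes were -0.78 for Htr2c and 0.54 for Htr6.

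**Figure D2:**
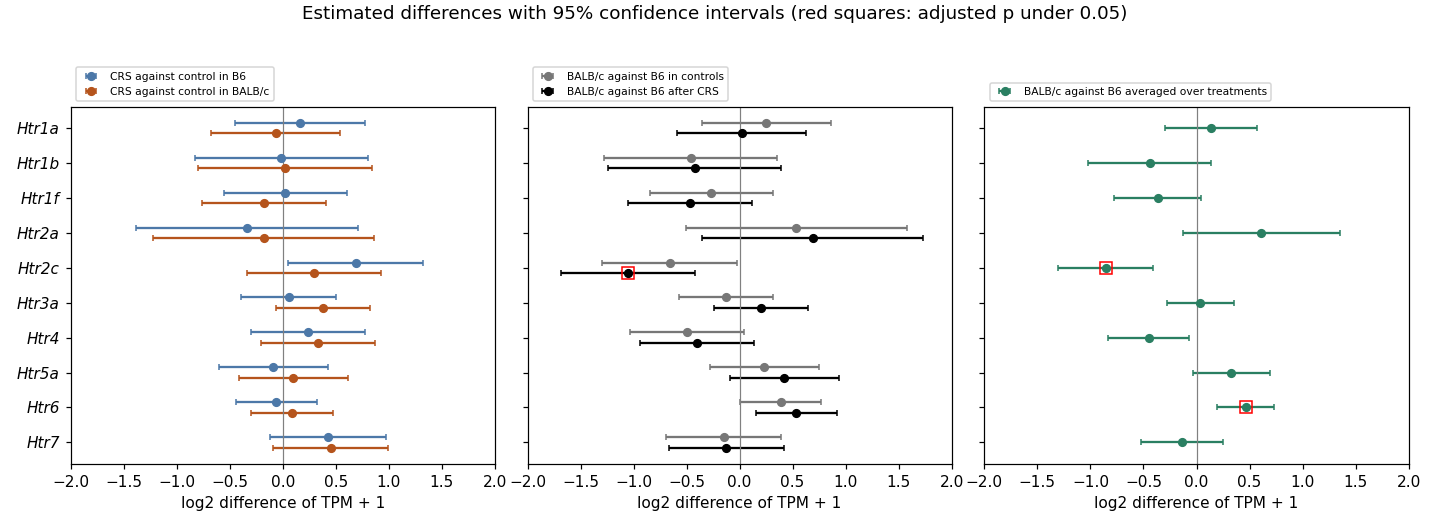
Log2 change (log2 of TPM + 1) of each receptor gene with its 95% interval, for CRS against control in each strain and for BALB/c against B6 in controls and after CRS (3 libraries per group). The intervals of the CRS changes include 0 except that of Htr2c in B6, which runs from 0.05 to 1.32, and the strain interval of Htr2c after CRS ends at -0.42.

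No receptor gene was called for CRS. In B6 0 of 10 passed, as did 0% of all tested genes (0 of 16423 by limma, with 792 genes, or 4.82%, at an unadjusted p under 0.05). In BALB/c 0 of 10 passed, beside 0.00609% of all genes, and averaged over strains 0 of 10 passed, beside 0.00609%. At an unadjusted p under 0.05, 1 receptor gene stood in B6, 0 in BALB/c and 2 in the averaged test. CRS and control groups overlapped for all 10 genes in both strains, where 8.33% of all genes in B6 and 7.39% in BALB/c did not overlap. The medians of the 10 changes were 0.04 in B6 and 0.09 in BALB/c, against 0 and 0.05 for all genes.

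In the averaged test the receptor genes with the lowest p for CRS were Htr7 and Htr2c, both with higher means in the CRS mice of both strains. Htr2c differed by 0.69 in B6 (SE 0.29, limma unadjusted p = 0.0358, adjusted p = 1) and by 0.30 in BALB/c (SE 0.29, adjusted p = 1). For Htr7 the changes were 0.43 in B6 (SE 0.25) and 0.45 in BALB/c (SE 0.25), and 0.44 averaged (SE 0.18, limma adjusted p = 0.946). The 95% intervals show what 3 libraries per group could resolve: for CRS in B6 they ran from -1.38 to 0.71 for Htr2a, from -0.45 to 0.78 for Htr1a and from -0.44 to 0.32 for Htr6. The other CRS changes lay between -0.34 (Htr2a) and 0.24 (Htr4) in B6 and between -0.18 (Htr2a) and 0.38 (Htr3a) in BALB/c. With a library left out the B6 change of Htr2a ran from -0.83 to 0.40, so that its direction depended on single animals. The CRS effect itself did not differ detectably between the strains: 0 of 10 genes passed the interaction test, as did 0% of all genes (limma; 443 genes at an unadjusted p under 0.05), and the lowest receptor p was 0.280, for Htr3a (0.33, SE 0.29).

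The punches held cortex. Excitatory neuron markers (6 of 6 present, Slc17a7 and Camk2a among them) summed to 1916 to 4432 TPM, and markers of serotonin neurons to at most 1.10 TPM, with Fev listed at 0 in all 12 libraries. Summed markers of other tissue and cell types differed among libraries. Markers of striatal medium spiny neurons (12 of 12 present, Drd1 and Drd2 among them) summed to 3048, 523 and 253 TPM in B6 controls and 2522, 1907 and 1097 TPM in B6 CRS mice, against 165 to 442 TPM in BALB/c. Oligodendrocyte markers summed to 2510 to 9590 TPM in B6 and 475 to 3048 TPM in BALB/c. Htr2c is abundant in choroid plexus, whose markers summed to 9.0 to 58.1 TPM with overlapping groups. Ttr made up most of that sum except in B6 control 2, B6 CRS 12 and B6 CRS 14, and ranged from 5.01 TPM in B6 CRS 14, the library with the highest Htr2c, to 55.1 TPM in B6 control 9. The other 6 choroid markers summed to 3.02 to 17.2 TPM in B6, highest in B6 CRS 12, and to 1.55 to 5.24 TPM in BALB/c. Folr1 was at 4.50, 2.14 and 1.70 TPM in B6 CRS 12, 13 and 14 and at no more than 1.16 TPM in any other library. Clic6 and Otx2 were highest in B6 CRS 12 (7.32 and 3.41 TPM), the library second in Htr2c. Kl was highest in B6 CRS 14 (1.72 TPM), close to B6 control 3 (1.67 TPM) and BALB/c CRS 15 (1.65 TPM). Kcnj13 was at 0.204, 0.137 and 0.360 TPM in B6 CRS 12, 13 and 14 and highest in B6 control 3 (1.83 TPM). Aqp1 was highest in BALB/c CRS 15 (0.380 TPM) and at 0.206, 0.178 and 0.344 TPM in B6 CRS 12, 13 and 14. The part of choroid plexus in the Htr2c level was not tested.

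Within each strain the log2(TPM + 1) of each receptor was set against the striatal marker score, the mean log2(TPM + 1) of the 12 markers. Over the 6 B6 libraries Htr1b had Pearson's r = 0.81 (exact permutation p = 0.0417) and Spearman's rho = 0.94 (exact permutation p = 0.0167). Htr2a had r = -0.86 (exact permutation p = 0.0292) and rho = -0.83 (0.0583), and Htr5a had r = -0.90 (exact permutation p = 0.0194) and rho = -0.94 (0.0167). Without the 2 libraries farthest from the median score, r was 0.96 for Htr1b, -0.99 for Htr2a and -0.96 for Htr5a. None of the 22 relations computed (10 receptors and Htr1d in each strain) passed Benjamini-Hochberg adjustment; the lowest adjusted permutation p was 0.214 for r and 0.183 for rho. Htr2c (r = 0.43) and Htr6 (r = 0.44) were not closely tied to the score in B6, with exact permutation p of 0.394 and 0.407. In BALB/c, where the score spanned a narrow range, r was between -0.64 (Htr3a) and 0.65 (Htr1f). There Htr1b had r = -0.53 and rho = -0.49, opposite in sign to B6. Htr2a had r = -0.54 and rho = -0.77, and Htr5a had r = -0.52 and rho = -0.09. For Htr1f rho was 0.89 (exact permutation p = 0.0333, adjusted 0.214).

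**Figure D3:**
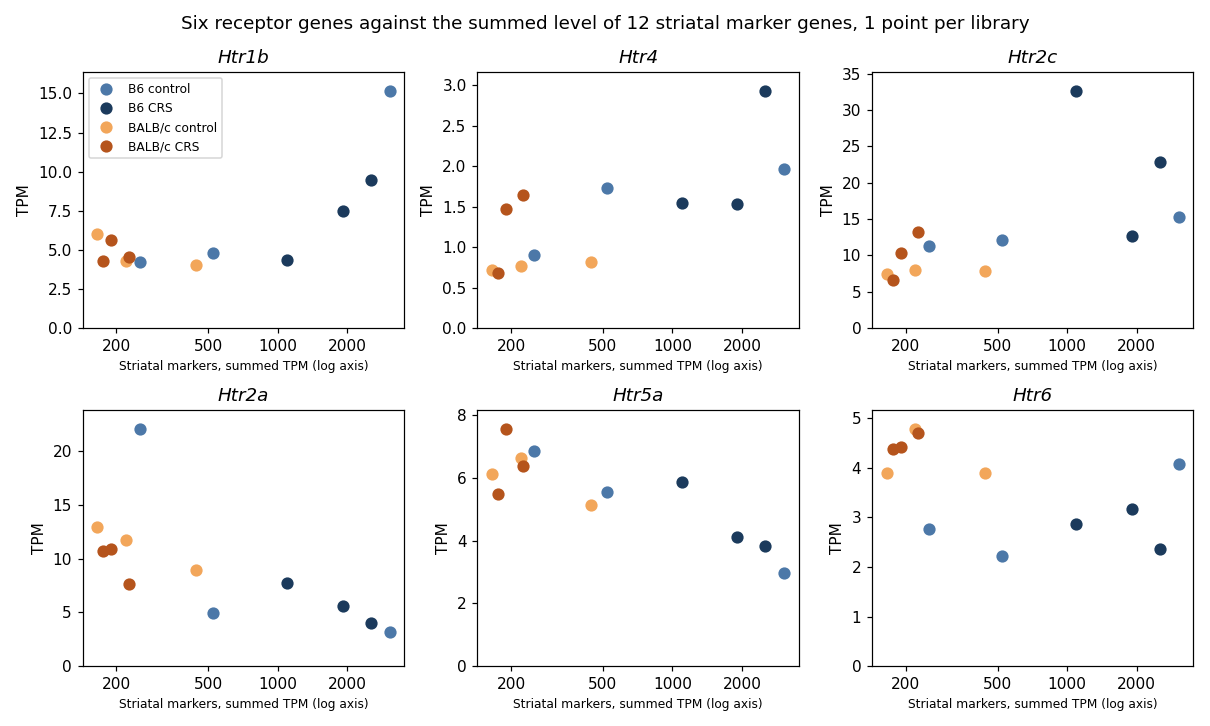
TPM of receptor genes against the summed striatal marker TPM of each library (log axis), with the 12 libraries marked by group. Among the 6 B6 libraries Htr1b is high and Htr2a low where the marker sum is high; the BALB/c libraries stay between 165 and 442 TPM.

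With the striatal score as a covariate in the same 12-library fit, 6 of the 10 averaged strain differences changed sign. Htr2a went from 0.61 to -0.73 (SE 0.29, limma adjusted p = 0.243), Htr1b from -0.44 to 0.50 (SE 0.28), Htr5a from 0.33 to -0.28 (SE 0.17) and Htr1a from 0.14 to -0.33 (SE 0.29). Htr3a and Htr7, both near 0 before, moved to -0.11 and 0.01. The signs of Htr2c, Htr6, Htr1f and Htr4 stayed, although Htr4 shrank from -0.45 to -0.03. With the excitatory neuron score 5 signs changed and with the oligodendrocyte score 7, in neither case those of Htr2c or Htr6. No receptor was called with any of the 3 scores. Calls over all 16423 tested genes fell too, from 3021 without a score to 506 (striatal), 950 (excitatory neuron) and 357 (oligodendrocyte). The scores differ between the strains, so that a score and the strain are partly the same term in such a fit, and the SE of Htr2c rose from 0.21 to 0.34 with the striatal score.

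**Figure D4:**
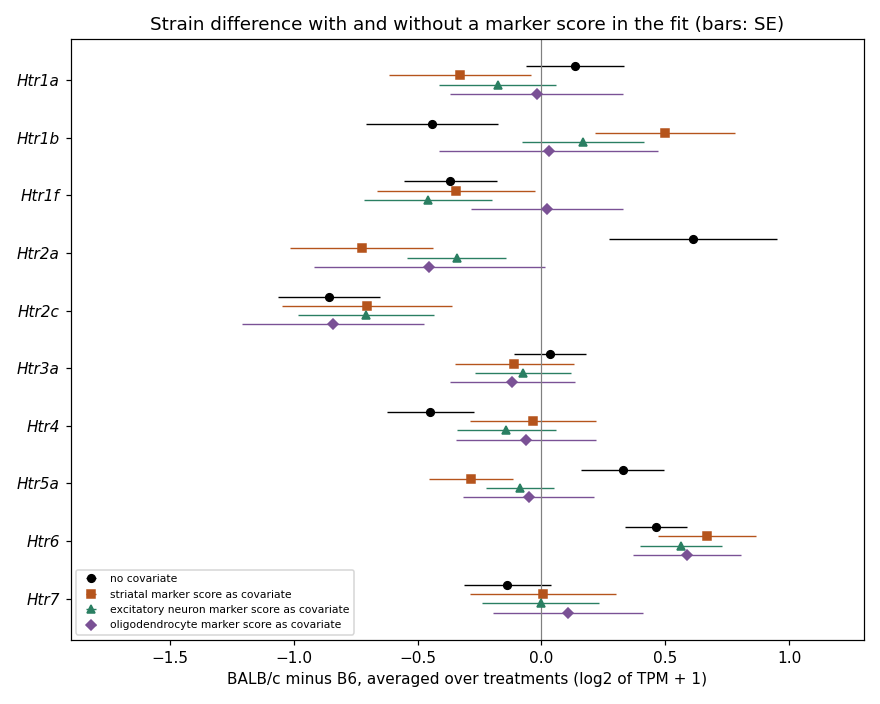
Averaged strain difference (log2 of TPM + 1, BALB/c minus B6) of each receptor gene without a covariate and with each of 3 marker scores as a covariate; bars are SEs. Htr2c stays below 0 and Htr6 above 0 in all 4 fits, whereas Htr2a, Htr1b and Htr5a lie on the other side of 0 with each score.

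Of the other receptor genes of the family, Htr1d, a Gi/o-coupled autoreceptor like Htr1b, measured 4.92, 1.06 and 0.411 TPM in B6 controls and 2.52, 1.80 and 3.67 TPM in B6 CRS mice, against 0.0702 to 0.961 TPM in BALB/c. It was lower in BALB/c in the averaged test (-1.13, SE 0.31, limma adjusted p = 0.0246), and the 6 BALB/c libraries lay below all B6 libraries except B6 control 9. The call was lost without B6 CRS 14 (-1.03, limma adjusted p = 0.0548), BALB/c control 5 (-1.08, adjusted p = 0.0551), BALB/c control 9 (-1.07, adjusted p = 0.0520) or BALB/c CRS 12 (-1.05, adjusted p = 0.0633), and with no filter on low values (adjusted p = 0.0568). Over the 6 B6 libraries Htr1d followed the striatal score with r = 0.85 (exact permutation p = 0.0292, adjusted 0.214) and rho = 0.83 (exact permutation p = 0.0583), but leaving out the 2 libraries with the most distant scores took r to 0.13, so the relation rests on those libraries. With the striatal score as a covariate the strain difference of Htr1d was -0.22 (SE 0.39, limma adjusted p = 0.810), with the excitatory neuron score -0.51 and with the oligodendrocyte score -0.88, and it was called with none of them. Htr5b stayed between 0.458 and 1.51 TPM and did not pass (0.17, adjusted p = 0.481). Htr2b was listed at 0 in 9 libraries and reached at most 0.304 TPM, and Htr3b was listed at 0 in 11 and reached at most 0.0911 TPM; neither was tested.

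Among the 9 genes of serotonin synthesis, storage, uptake and breakdown, 5 reached the filter and 2 fell in BALB/c in each strain test, Ddc and Maob, with none higher. Over all tested genes 4.73% passed in controls, 7.7% after CRS and 18.4% in the averaged test, where 2356 of the 3021 calls were lower. The list counts that follow stand beside that averaged share. Ddc, the decarboxylase that makes serotonin and dopamine from their precursors, averaged 7.29 and 8.12 TPM in B6 controls and CRS mice and 2.40 and 2.55 TPM in BALB/c, an averaged log2 change of -1.27 (SE 0.20, limma adjusted p = 0.00138). Maob, a monoamine oxidase, averaged 20.3 and 18.8 TPM in B6 and 12.0 and 11.5 TPM in BALB/c, a change of -0.69 (SE 0.08). Of 8 genes for Gs proteins and adenylyl cyclases, 2 were lower in the averaged test and 0 higher: Gnal (-0.75), the Gs-like alpha subunit of striatum and olfactory tissue, and Adcy5 (-1.24), the main striatal adenylyl cyclase. Of 12 receptor regulators and partners 1 was lower, Ppp1r1b (-2.26), which is itself in the striatal marker list. Of the 3 genes listed for RNA editing (Adar, Adarb1 and Adarb2) only Adarb2 was called, higher in BALB/c (0.67, limma adjusted p = 0.0180). Adarb2 is itself in the marker list of the Htr3a class of interneurons, and editing was not measured. With the striatal score as a covariate Maob stayed called (-0.66, limma adjusted p = 0.0209), while Ddc did not (-0.53, adjusted p = 0.238). Nor did Gnal (-0.17), Adcy5 (-0.09), Ppp1r1b (-0.24) or Adarb2 (0.49). For Ppp1r1b this decides nothing, since the gene is part of that score. Ddc stayed called with the excitatory neuron score (-0.79, limma adjusted p = 0.0256) but not with the oligodendrocyte score (-0.65, adjusted p = 0.456). Maob stayed called with both (adjusted p = 0.00381 and 0.0412), and Gnal, Adcy5 and Ppp1r1b with neither. Adarb2 also lost its call without BALB/c control 10 (0.61, limma adjusted p = 0.0515) and with the highest row of each gene (0.44, adjusted p = 0.114). It was not called with the excitatory neuron score (0.59, adjusted p = 0.168) or the oligodendrocyte score (0.39, adjusted p = 0.779).

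No gene for Gi/o proteins and GIRK channels (8 of 9 tested; lowest p for Kcnj9, 0.52, limma adjusted p = 0.0699), for Gq proteins and phospholipase C beta (6 of 7; Plcb2, -0.43, adjusted p = 0.141) or for repressors of Htr1a transcription (4 of 4; Cc2d1a, 0.15, adjusted p = 0.358) passed the averaged strain test. For CRS no gene of any of these lists passed in either strain or averaged. The lowest p among them in the averaged CRS test was that of Hes5, a Notch target known to repress Htr1a (0.44, SE 0.15, limma unadjusted p = 0.0149, adjusted p = 0.946).

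Several receptor genes were given on more than 1 row of the table, probably 1 row per transcript: 7 for Htr2c, 6 for Htr7, 4 for Htr4 and 2 each for Htr1b, Htr3a and Htr6. A single row held 88.1% of Htr2c, and on that row alone the group means were 10.9 and 20.2 TPM in B6 and 6.79 and 9.15 TPM in BALB/c (control and CRS). Taking the highest row of each gene, the averaged strain change was -0.79 for Htr2c (limma adjusted p = 0.0354) and 0.36 for Htr6 (adjusted p = 0.0726, no longer called), whose leading row held 90.1%. Htr7 was spread more evenly, its leading row holding 35.1%. That row averaged 0 TPM in B6 controls and 3.07 TPM in B6 CRS mice, while another row went from 1.50 to 0.248 TPM. In BALB/c the leading row was at 2.18, 0 and 0 TPM in controls and 1.33, 0 and 2.67 TPM after CRS. The other row averaged 0.558 TPM in BALB/c controls and 0.832 TPM in BALB/c CRS mice. The rows carry no transcript names, and no test was made on them.

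Deviations from the group means were then compared between genes over the 12 libraries, as a description. The receptors closest to each other were Htr4 and Htr7 (r = 0.81), Htr2a and Htr5a (0.78), and Htr1a and Htr5a (0.74), and the most opposed were Htr1b and Htr5a (-0.79) and Htr2a and Htr4 (-0.73). Among 10485 genes with a mean of at least 5 TPM, those most like Htr2c were Cnih2 (r = 0.97), Scg2 (0.94) and Sbk1 (0.94), and those most like Htr6 were Gpbp1l1 (0.91), Tmod1 (0.91) and Fam50a (0.90). The nearest gene was Arhgap15 for Htr2a (0.98), Acvrl1 for Htr1b (0.97), Impa1 for Htr1a (0.97), Smpd1 for Htr5a (0.99), Kcna1 for Htr1f (0.95), Prelp for Htr4 (0.95), Tprgl for Htr7 (0.97) and Grn for Htr3a (0.97). With 12 libraries sharing 4 group means, such values arise readily in a ranking over so many genes.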

How the data were processed

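Gene expression was measured in 12 poly(A)-selected stranded libraries, read in pairs of 150 bp (about 6 Gb a library), per the labels' protocols. The submitters' processing notes name cutadapt 2.9, Salmon and GRCm38; the annotation release and strand setting are not given in the sources used here. The authors deposited TPM values, which sum to the same total in every library, so read depth is unknown and no counting error is given. Rows were summed per gene name (147902 rows), and no 2 columns were identical. Genes reaching 1 TPM in 3 or more libraries were fitted as log2(TPM + 1) with a mean per group in limma 3.58.1 (R 4.3.3, eBayes with intensity trend), which was tested on simulated data, and called at a Benjamini-Hochberg adjusted p under 0.05. The log scale understates changes of low genes. The labels give 1 mouse per library but no litter or batch. Receptors, lists and tests were chosen with earlier results of these data known. All 10 receptors were named; from each other list, called genes or else the gene of lowest p; and the 3 genes of highest r per receptor, of which the first is printed for most. Alternatives covered pseudocounts, filters, scalings, variance model, rows, covariates, a replicate block and each library left out. Promoter windows are from RefSeq (GRCm38.p6) and gene positions from GENCODE M21.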

Additional observations from a re-analysis of the deposited data

How the results depend on the processing

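In the averaged strain test Htr2c was lower in BALB/c under every alternative run, and Htr6 was higher. The count of receptors called in the averaged strain test was 2 as reported, where 3021 of 16423 genes passed. It was 0 with the striatal, excitatory neuron or oligodendrocyte score as a covariate (506, 950 and 357 of all genes). The latter 2 scores were chosen after seeing the data. The count was 1 with the highest row per gene (2612 of 15785 genes), with no filter (2660 of 30737) and with the replicate block (2455 of 16423). A mean of at least 5 TPM, which leaves Htr6 untested, also gave 1 (1929 of 11203). With a library left out the count ran from 1 to 4, and calls over all genes from 1975 to 3787. The 4 came without B6 control 9, where 3787 of 16298 genes passed. After CRS the count was 1, where 1264 of all genes passed. It became 0 with the striatal, excitatory neuron and oligodendrocyte scores (236, 396 and 243 of all genes). Other settings with 0 were the highest row (1053), no filter (969), no intensity trend (1246), only the groups compared (1438) and a pseudocount of 0.1 (1167). With a library left out the count ran from 0 to 2, and calls over all genes from 539 to 1852. In controls the count ran from 0 to 1. The 1 came without B6 control 9, where 1389 of 16298 genes passed, against 777 of 16423 as reported. The cause of these losses was not tested, apart from that given for Htr6. The CRS and interaction counts stayed at 0 throughout, where at most 7 of all genes passed in any of these fits.

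Averaged strain differences that changed sign were, with the excitatory, oligodendrocyte and striatal scores in that order, -0.177, -0.0193 and -0.328 for Htr1a, 0.168, 0.0294 and 0.499 for Htr1b, -0.342, -0.452 and -0.725 for Htr2a, -0.0758, -0.118 and -0.109 for Htr3a and -0.0862, -0.0515 and -0.285 for Htr5a. Htr1f changed sign with the oligodendrocyte score (0.0241), and Htr7 with the oligodendrocyte (0.108) and striatal (0.00752) scores. Htr3a ran from -0.0484 to 0.110 with a library left out.

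Animal numbers 9, 12 and 13 occur in both strains but mark different mice, and deviations of same-numbered libraries correlated at -0.24, -0.03 and -0.04. With these numbers as a replicate block the averaged count was 1, Htr2c (adjusted p = 0.0118), and Htr6 had limma adjusted p = 0.0531. The fit on only the groups compared was not run for the averaged and interaction tests, which use all 4 groups. With 3 libraries per group and unknown depth, changes inside the printed intervals could not be resolved, and within-strain changes were least precise for Htr2a (SE 0.48) and Htr1b (SE 0.37).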
